A study of Drosophila melanogaster with 6 samples.

Results

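The genes described here code for the light-sensing machinery of the fly eye. They are the rhodopsins, the signalling cascade they drive, the proteins that supply their retinoid chromophore, and proteins that build the photoreceptor cell. They were chosen by symbol and comprise 32 genes of the 17753 identifiers in the count table. All 32 had counts in every library and all 32 passed the filter on low counts, which left 8945 genes.

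The flies were male *Drosophila melanogaster* with a Ugt35b RNA interference construct under Repo-GS, a GeneSwitch driver active across glia. Controls, labelled EtOH, carried the same driver and construct and were given the ethanol solvent. The other group was given RU486, the drug that switches the driver on. Each group had 3 libraries, each from 10 flies at day 10, and no label ties them to independent cultures. The p-values therefore rest on the variation among libraries as made, part of which may be technical. Both groups share 1 genotype, and no library with drug and driver but no construct was analysed here, so the effects of drug and knockdown cannot be told apart.

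Fly photoreceptors are neurons, not glia. Light isomerises the chromophore of rhodopsin, rhodopsin activates a Gq protein, and Gq activates the phospholipase C NORPA. The breakdown of membrane phosphoinositide then opens the channels TRP and TRPL. The chromophore is a retinoid made from dietary carotenoids, and in the eye it is handled partly by pigment cells that surround the photoreceptors. The compound eye has outer photoreceptors R1 to R6, which use the rhodopsin of ninaE. The inner cells R7 use Rh3 or Rh4 and the inner cells R8 use Rh5 or Rh6, while Rh2 serves the ocelli, the simple eyes on top of the head.

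Library totals ranged from 10156909 to 12636787 counts, and levels are given as counts per 1000000 (CPM) scaled with TMM factors. The target, Ugt35B1, had 145, 136 and 147 CPM in the EtOH libraries and 106, 83.0 and 104 CPM with RU486 (edgeR quasi-likelihood test, log2 fold change -0.54, SE 0.09, adjusted p = 0.00865). That call was lost without EtOH replicate 3 (adjusted p = 0.0566). Of all genes tested, 683 (7.64%) were called at an adjusted p under 0.05, 390 higher and 293 lower in RU486. Leaving out EtOH replicate 1, 2 or 3 gave 399, 1441 and 341 calls, and leaving out RU486 replicate 1, 2 or 3 gave 497, 440 and 402. The labels name the tissue as head and the extraction protocol names brains. The 32 genes together held 8.81%, 7.62% and 7.72% of the counts in the EtOH libraries and 7.50%, 7.10% and 7.64% in the RU486 libraries, so eye RNA was present in each. In such bulk samples, fewer cells of a type and less RNA per cell cannot be told apart.

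Of the 32 genes, 2 rose, 2 fell and 28 did not pass the test. Those that rose were laza and ninaB, those that fell were ninaD and pinta, and 3 of these 4 belong to the supply of the chromophore. The 2 genes higher are 6.25% of the members, where 4.36% of all genes tested were called higher, and the 2 lower are 6.25%, where 3.28% of all genes were called lower. The other 28 genes had log2 fold changes (RU486 minus EtOH) between -0.32 and 0.35. The precision differed by gene: the 95% interval was -0.19 to 0.11 for chp, -0.59 to -0.01 for Rh2 and 0.07 to 0.64 for rdgA, and the interval left out 0 for 10 of the 28. Fold changes were below 0 for 24 of 32 members (75%), against 49.4% of all genes tested. The median was -0.13 for the members and 0.00 for all genes. At an unadjusted p under 0.05 (edgeR), 3 of the 32 members were higher and 11 lower. Of all genes tested, 22.3% were under that level in either direction and 10.7% were lower. The 8 genes of scaffold, kinase, lipid and calcium regulation held 2 of those higher and 3 of those lower. The 5 genes of chromophore supply held 1 and 2. The members were not tested as a set.

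**Figure D1:**
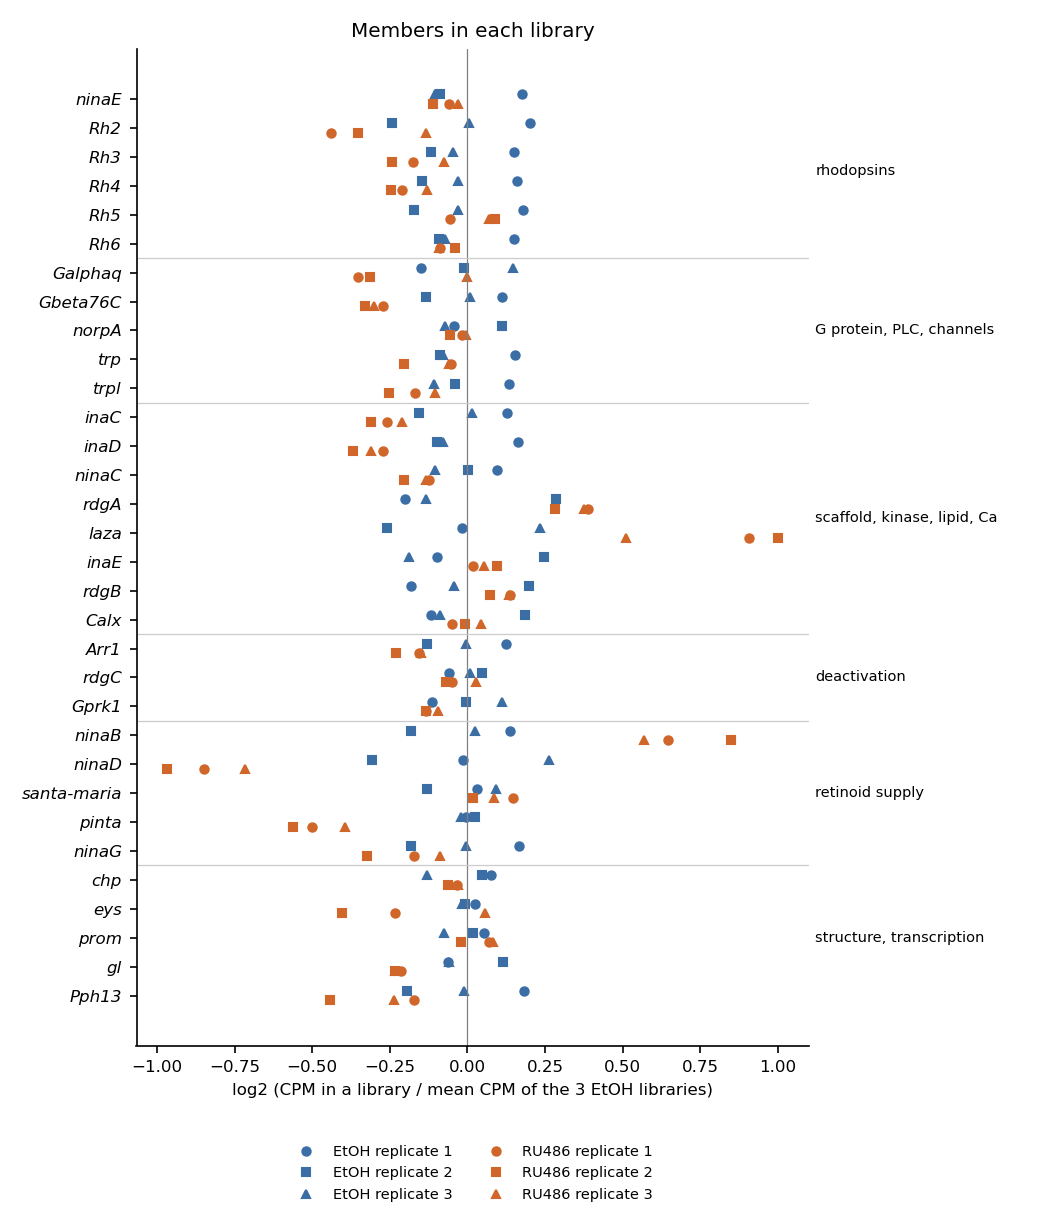
Level of each of the 32 genes in each library, as the log2 ratio to the mean CPM of the 3 EtOH libraries; genes are ordered by role, colours mark the groups and shapes the replicates. The RU486 points of laza and ninaB lie to the right of every EtOH point and those of ninaD and pinta to the left, while for most other genes the groups overlap.

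Groups that did not overlap were more frequent than calls, among these genes as among all genes tested. All 3 RU486 libraries lay below all 3 EtOH libraries for 8 of the 32 genes (25.0%), against 13.6% of all genes tested. These were Gbeta76C, inaC, inaD, ninaC, Arr1, gl, ninaD and pinta. All 3 lay above for laza and ninaB (6.25%), against 13.7% of all genes. The low side therefore held a larger share of the members than of all genes, a description that was not tested. The 6 of the 8 that were not called had fold changes of -0.32 to -0.15.

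The libraries of a group differed among themselves, and more so in EtOH. The SD was 9.75% of the mean in EtOH and 3.90% in RU486 at the median gene, and was the larger in EtOH for 28 of 32 genes. EtOH replicate 1 was the highest EtOH library for 19 genes, including all 6 rhodopsins. EtOH replicate 2 was the lowest for 16 genes with a median exonic length of 1908.5 bases and the highest for 8 genes with a median of 7712 bases. The neuron markers, 8 of 10 of which were tested, summed to 8475 CPM in EtOH replicate 2, against 5767 and 6255 in the other EtOH libraries and 6862 to 7144 in RU486. The part of the neuron markers in the fold changes was not tested. With a correction for gene length, laza (log2 fold change 0.80), ninaB (0.67), pinta (-0.47) and ninaD (-0.85) were still called. The same correction moved norpA from -0.02 to -0.17, Calx from -0.00 to -0.15 and rdgA from 0.35 to 0.175, and 8 members were then called lower. Of all 8945 genes, 564 were called lower with the correction and 293 without it. The correction used the full exonic length of each gene, while the counts of rdgA rest on 14.7% of its exonic bases. Without EtOH replicate 2, 8 members were called lower and 4 higher. Of all 9085 genes tested in that fit, 588 were called lower and 853 higher. In the main fit these were 293 and 390 of 8945. The members added in the fit without EtOH replicate 2 were Rh2, Rh4, Gbeta76C, inaC, inaD and Arr1 on the low side and rdgA and inaE on the high side. Without any other library 1 member was called lower, and without EtOH replicate 1 only ninaB was called higher.

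RU486 replicate 2 was the lowest RU486 library for 23 of the 32 genes. It also held digestive transcripts: 6 markers of digestive enzymes summed to 7963 CPM there, to 32.2 and 746 CPM in RU486 replicates 1 and 3, and to between 24.3 and 41.6 CPM in EtOH. The 2 members called higher, laza (232 CPM) and ninaB (278 CPM), were at their highest in RU486 replicate 2. Without this library laza, ninaB and pinta remained called. Their log2 fold changes were then 0.72, 0.61 and -0.45, against 0.82, 0.70 and -0.48 with all libraries. The gene ninaD was then not called, at a log2 fold change of -0.78 against -0.84 with all libraries, and its call was also lost without 4 of the other 5 libraries.

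The order of levels among the genes is best read per length, as CPM per kilobase of exon not shared with another gene. By this measure ninaE was far above the rest at 25029 ± 2797 in EtOH and 23914 ± 672 in RU486 (SD, n = 3). Arr1, the arrestin, followed at 3794 ± 333 in EtOH and trpl at 1842 ± 162. The channel gene trp, at 1028 ± 99.5, and Rh4, at 998 ± 109, did not differ beyond their spread. At the low end ninaD had 4.08 ± 0.798 and rdgA 21.7 ± 4.15. The values of rdgA and eys rest on 14.7% and 14.8% of their exonic bases and that of Galphaq on 48.9%. The rest lies within other genes, and genes lying wholly inside others had no counts.

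**Figure D2:**
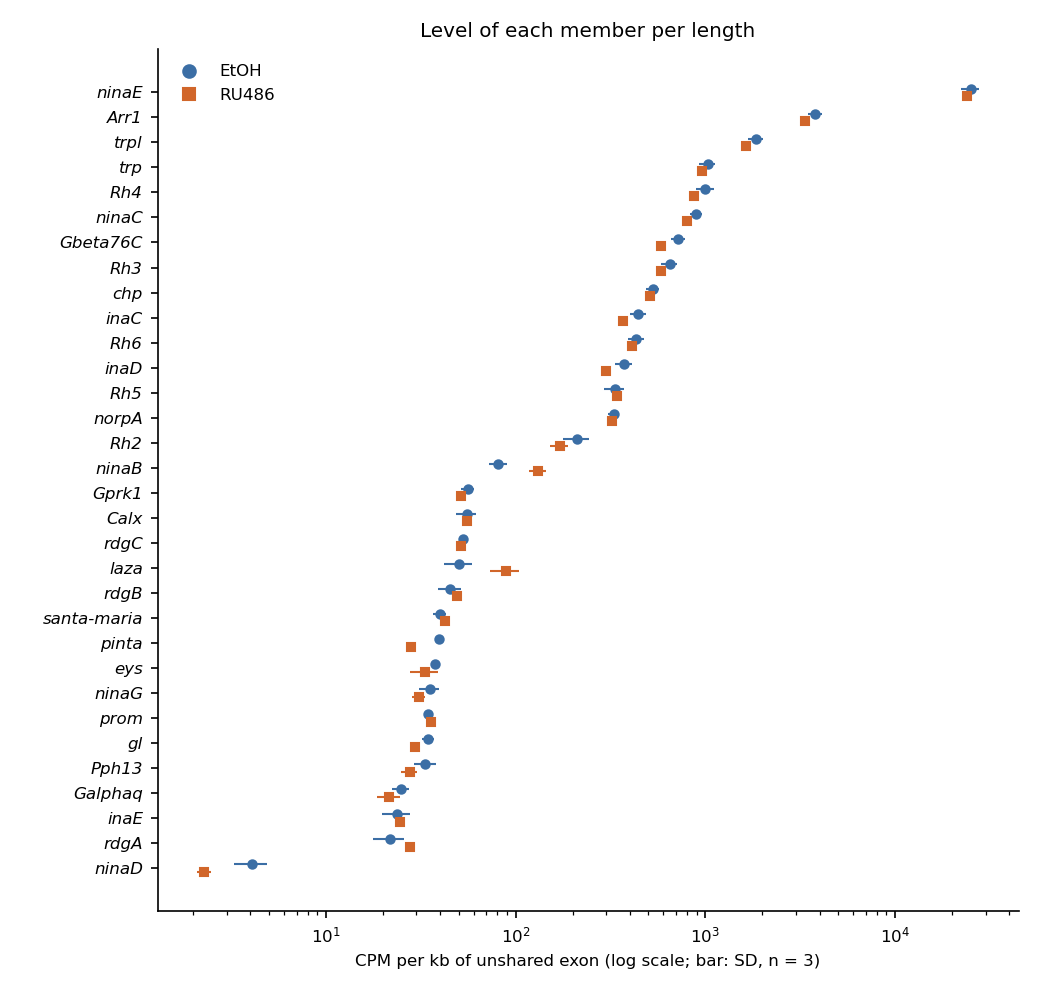
CPM per kilobase of unshared exon for each gene on a log axis, as mean and SD of 3 libraries in EtOH and in RU486. Levels span from 4.08 for ninaD to 25029 for ninaE in EtOH.

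Among the rhodopsins, no gene passed the test. The main rhodopsin gene, ninaE (chromosome 3R, 19886255 to 19888206), was at 44868, 37402 and 36967 CPM in EtOH and at 38182, 36822 and 38925 CPM in RU486. EtOH replicate 1 stood above the other libraries, and the remaining 5 lay close together. The log2 fold change was -0.06, with a 95% interval from -0.22 to 0.09. Rh2 had 330, 242 and 288 CPM in EtOH and 211, 225 and 261 CPM in RU486. Its groups overlapped, with a log2 fold change of -0.30 (edgeR adjusted p = 0.204). Of the 6 rhodopsin genes edgeR called 0, with 1 (Rh2) at an unadjusted p under 0.05, where 22.3% of all genes tested were, and the DESeq2 Wald test and limma-voom also called 0.

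The 2 opsin genes of R7 and the 2 of R8 did not pass the test either. Rh3 and Rh4 had log2 fold changes of -0.16 (95% interval -0.36 to 0.04) and -0.19 (-0.39 to 0.00). Rh5 and Rh6 had 0.04 (-0.19 to 0.27) and -0.07 (-0.26 to 0.12). Because a ratio within 1 library does not depend on scaling, the ratio of Rh3 to Rh4 counts was also computed, and it was 0.667, 0.686 and 0.663 in EtOH and 0.687, 0.673 and 0.696 in RU486. The ratio of Rh5 to Rh6 counts was 0.877, 0.813 and 0.885 in EtOH and 0.879, 0.940 and 0.960 in RU486. Both ratios overlapped between groups, and their means differed by 0.0136 for Rh3 to Rh4 and 0.0677 for Rh5 to Rh6. The first difference was 0.00817 without RU486 replicate 3 and 0.0207 without EtOH replicate 2, and the second was 0.0449 without EtOH replicate 2 and 0.0912 without RU486 replicate 1.

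Of the 5 genes of the G protein, the phospholipase and the channels, edgeR called 0, with 2 (Gbeta76C and trpl) at an unadjusted p under 0.05, against 22.3% of all genes. The DESeq2 Wald test called 1, Gbeta76C, and limma-voom 0. Gbeta76C codes for the G protein beta subunit of the eye. It was at 1137, 960 and 1059 CPM in EtOH and 871, 837 and 854 CPM in RU486. All RU486 libraries were below the lowest EtOH library, and the log2 fold change was -0.30 (SE 0.08, 95% interval -0.48 to -0.12, edgeR adjusted p = 0.0526). It lies just outside the threshold, and 9 of 11 other settings of scaling, filter and tool called it lower. Of the 6 fits that left out a library, 1 called it, the fit without EtOH replicate 2. The others gave edgeR adjusted p = 0.113 to 0.185. For norpA the fold change was -0.02 (-0.17 to 0.12), for trp -0.10 (-0.28 to 0.07), for trpl -0.17 (-0.33 to -0.01) and for Galphaq, the G protein alpha subunit, -0.21 (-0.47 to 0.04), all on the log2 scale with 95% intervals.

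**Figure D3:**
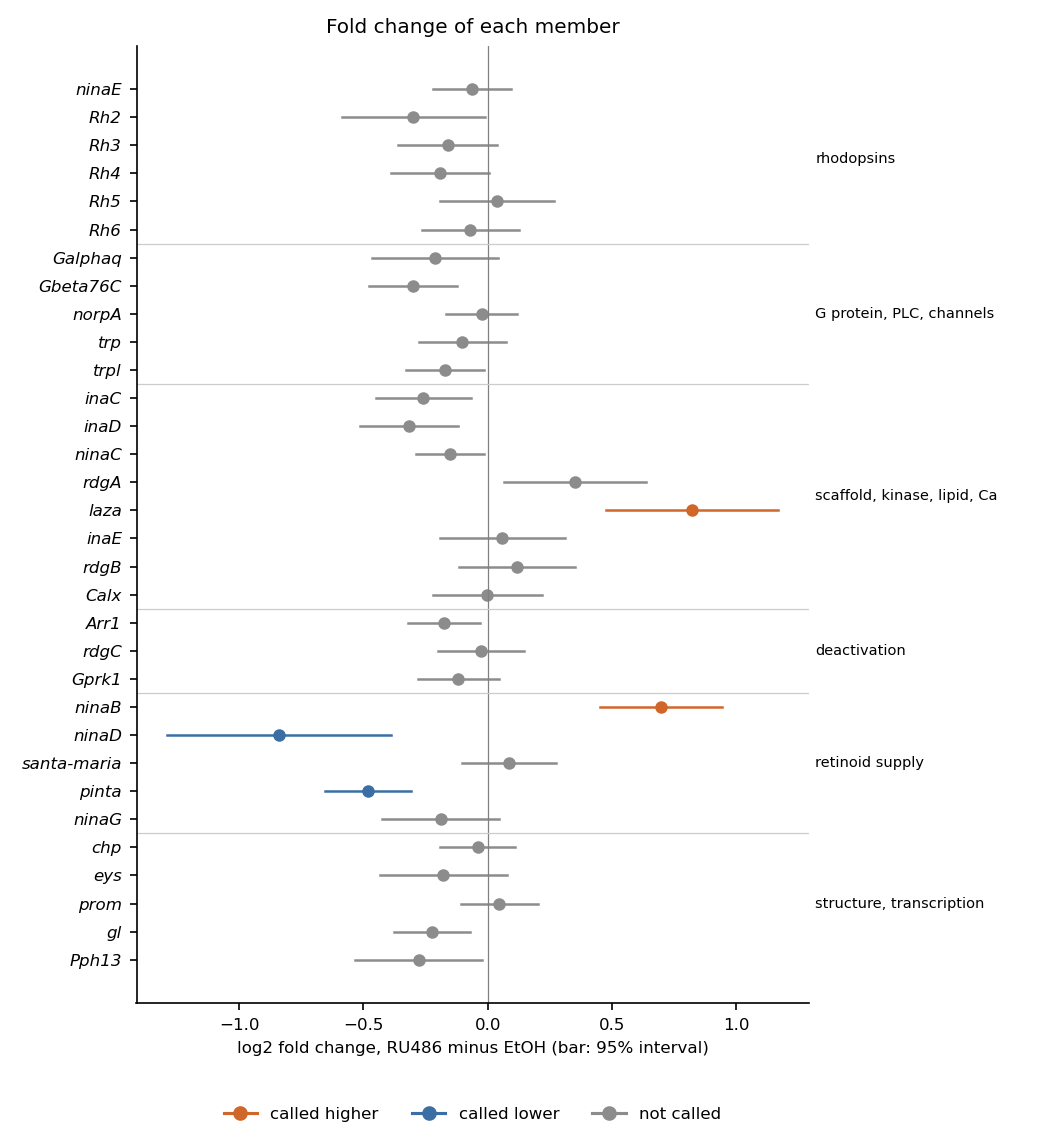
Log2 fold change of each gene, RU486 minus EtOH, with its 95% interval from the fit over all genes, ordered by role. The called genes are laza and ninaB to the right of 0 and ninaD and pinta to the left, and Gbeta76C (-0.30) and inaD (-0.32) lie just outside the threshold.

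NORPA and TRP are held by INAD, a scaffold protein of PDZ domains, together with the eye protein kinase C coded by inaC. The scaffold gene inaD was at 969, 809 and 820 CPM in EtOH and 716, 670 and 697 CPM in RU486, with no overlap. Its log2 fold change was -0.32 (SE 0.09, edgeR adjusted p = 0.0634), and 5 of the 11 other settings called it lower. Of the 6 fits that left out a library, 1 called inaD, the fit without EtOH replicate 2 (the others, adjusted p = 0.125 to 0.196). The kinase gene inaC went from 1038 ± 101 to 867 ± 30.1 CPM (SD, n = 3), also with no overlap, at -0.26 (SE 0.08, adjusted p = 0.105). The gene ninaC, of an unconventional myosin with a kinase domain, was at 5178, 4848 and 4513 CPM in EtOH and 4448, 4204 and 4419 CPM in RU486. Those libraries do not overlap, with a log2 fold change of -0.15 (adjusted p = 0.182).

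Ratios of counts within a library were also computed for other pairs of members. The count of inaD was 0.204, 0.201 and 0.203 of that of trp in EtOH and 0.174, 0.181 and 0.170 in RU486, so the ratio was lower in all 3 RU486 libraries. For inaC to trp the ratios were 0.239, 0.232 and 0.259 in EtOH and 0.211, 0.226 and 0.219 in RU486, again without overlap. The ratio of trpl to trp was 1.68 ± 0.0494 in EtOH and 1.60 ± 0.0443 in RU486 (SD, n = 3) and that of Arr1 to ninaE 0.237 ± 0.0140 and 0.219 ± 0.00174, both without overlap. These pairs were chosen after the values were seen, and their ratios are descriptions with no test.

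**Figure D4:**
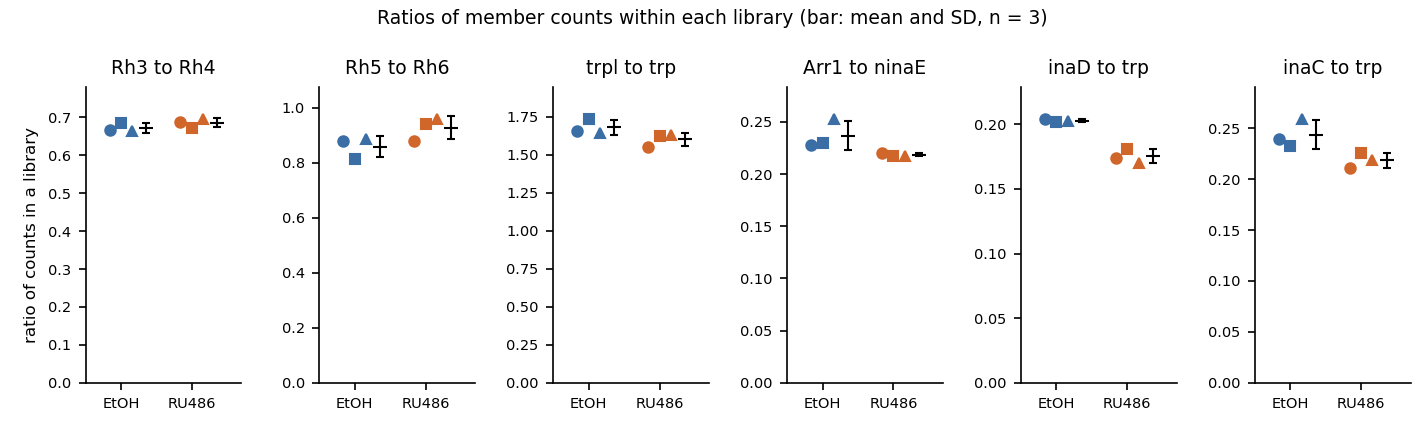
Ratio of the counts of paired genes within each library (points) with mean and SD of 3 libraries (black), on axes that start at 0. The ratio of inaD to trp is near 0.203 in EtOH and 0.175 in RU486, while Rh3 to Rh4 and Rh5 to Rh6 overlap between groups.

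Lipid second messengers link NORPA to the channels. The gene laza (chromosome 3L, 22458816 to 22461131, minus strand) codes for a phosphatidic acid phosphatase that works against the diacylglycerol kinase of rdgA. It was at 115, 97.2 and 136 CPM in EtOH and 218, 232 and 165 CPM in RU486, so every RU486 library was above every EtOH library. It rose 1.77-fold (log2 fold change 0.82, SE 0.15, edgeR adjusted p = 0.0116), a call lost without EtOH replicate 1 (adjusted p = 0.0698). It was called in the other 5 fits that left out a library and in all 11 other settings. For rdgA itself the values were 38.4, 53.8 and 40.2 CPM in EtOH and 57.7, 53.7 and 57.3 CPM in RU486. EtOH replicate 2 overlapped the RU486 range, and the log2 fold change of 0.35 did not pass (adjusted p = 0.137) except without that library (0.00624). The diacylglycerol lipase gene inaE, the phosphatidylinositol transfer protein gene rdgB and the sodium/calcium exchanger gene Calx had log2 fold changes of 0.06, 0.12 and -0.00, with overlapping groups.

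Of the 3 genes that end the response, edgeR called 0, with 1 (Arr1) at an unadjusted p under 0.05 (22.3% of all genes), and the DESeq2 Wald test and limma-voom called 0. Arr1 (chromosome 2L, 18078269 to 18081307) was at 10238, 8590 and 9357 CPM in EtOH and 8426, 8011 and 8478 CPM in RU486, with no overlap. Its log2 fold change was -0.18 (95% interval -0.32 to -0.03, edgeR adjusted p = 0.147). The rhodopsin phosphatase gene rdgC and the rhodopsin kinase gene Gprk1 had -0.03 (-0.20 to 0.15) and -0.12 (-0.28 to 0.05). The main arrestin gene of these cells, Arr2, had no count in any library and lies inside another gene, so it was not measured.

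Of the 5 genes of chromophore supply, 1 rose (ninaB), 2 fell (ninaD and pinta) and 2 did not pass the test, where 4.36% of all genes were called higher and 3.28% lower. The group as such was not tested, and 1 of its calls, ninaD, was lost in 5 of the 6 fits that left out a library. The enzyme coded by ninaB (chromosome 3R, 13700565 to 13703164, plus strand) cleaves carotenoids to retinal. It was at 170, 136 and 157 CPM in EtOH and 241, 278 and 229 CPM in RU486, with a wide gap between the groups. It rose 1.62-fold (log2 fold change 0.70, SE 0.11, edgeR adjusted p = 0.00496) and the call held whichever library was left out and in all 11 other settings, with adjusted p no higher than 0.0348.

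The gene pinta codes for a retinoid-binding protein known from retinal pigment cells (chromosome 3R, 22423316 to 22424929, minus strand). Its values were 52.5, 53.5 and 51.8 CPM in EtOH and 37.2, 35.6 and 40.0 CPM in RU486. The EtOH libraries were nearly alike and all RU486 libraries lower. It fell 1.40-fold (log2 fold change -0.48, SE 0.08, adjusted p = 0.00557, edgeR), and again the call held in all 6 fits without a library and all 11 other settings.

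The scavenger receptor gene ninaD, known for carotenoid uptake in the gut, was low throughout. It had 90, 69 and 113 counts in EtOH and 42, 39 and 45 in RU486, or 7.23, 5.90 and 8.75 against 4.05, 3.73 and 4.43 CPM. The groups did not overlap, and it fell 1.79-fold (log2 fold change -0.84, SE 0.20, edgeR adjusted p = 0.0358). The call was lost in 5 of 6 fits that left out a library (adjusted p = 0.0812 to 0.161) and held without EtOH replicate 2. The gene begins 320 bases after the end of Arr1 on the same strand, and Arr1 had between 83754 and 127439 counts. What part reads running past Arr1 had in the ninaD counts was not tested.

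A second scavenger receptor gene of this supply, santa-maria, known from neurons and glia outside the retina, averaged 200 ± 15.7 CPM with EtOH and 212 ± 9.29 CPM with RU486 (SD, n = 3). The oxidoreductase gene ninaG, needed for the hydroxylated chromophore of the fly, was at 68.4 ± 8.21 and 59.9 ± 4.87 CPM. Both pairs of groups overlapped, with log2 fold changes of 0.09 (95% interval -0.10 to 0.28) and -0.19 (-0.43 to 0.05). The ratio of ninaB to pinta counts was 3.24, 2.55 and 3.03 in EtOH and 6.50, 7.82 and 5.73 in RU486. It divides a gene called higher by a gene called lower, so its gap between groups follows from those calls and was not tested.

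Next to these members stand the genes of a pair of retinol dehydrogenases known from retinal pigment cells. Pdh was at 1846, 1600 and 1584 CPM in EtOH and 1259, 1205 and 1262 CPM in RU486. It fell by 0.43 on the log2 scale (SE 0.08, edgeR adjusted p = 0.00888), a call lost without RU486 replicate 2 (adjusted p = 0.0530). The gene rdhB was at 151, 101 and 99.2 CPM in EtOH and 76.2, 67.6 and 97.4 CPM in RU486. Its groups did not overlap, but it did not pass (log2 fold change -0.54, SE 0.18, adjusted p = 0.112).

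**Figure D5:**
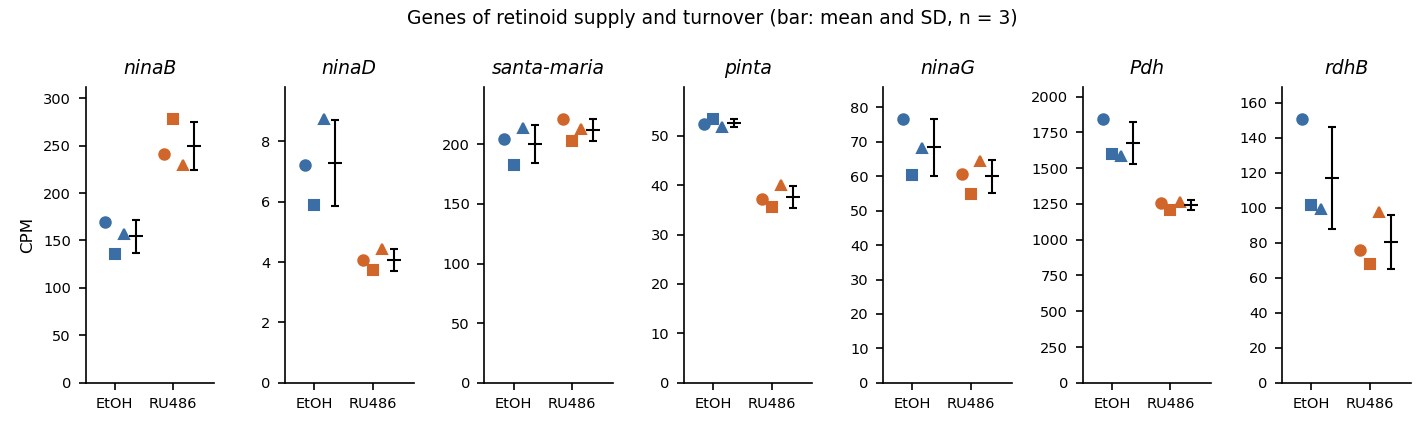
CPM of the genes of retinoid supply and turnover in each library (points, shapes mark replicates 1 to 3 as circle, square and triangle), with mean and SD of 3 libraries in black and axes that start at 0. The RU486 libraries of ninaB lie above and those of ninaD, pinta, Pdh and rdhB below every EtOH library, while santa-maria and ninaG overlap.

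Of the 5 genes of structure and transcription, edgeR called 0, with 2 (gl and Pph13) at an unadjusted p under 0.05, again beside 22.3% of all genes, and the DESeq2 Wald test and limma-voom called 0. Chaoptin, the adhesion protein of the light-sensing microvilli coded by chp, had 2706, 2654 and 2346 CPM in EtOH and 2509, 2461 and 2514 CPM in RU486, with overlap and a log2 fold change of -0.04. The genes prom (0.05) and eys (-0.18), whose products shape the space between the rhabdomeres, overlapped too. The zinc finger gene glass, gl, which drives photoreceptor identity, was at 112, 127 and 112 CPM in EtOH and 101, 99.6 and 99.6 CPM in RU486. The groups did not overlap, with a log2 fold change of -0.22 (SE 0.07, edgeR adjusted p = 0.0854). For the homeodomain gene Pph13 the change was -0.28 (95% interval -0.53 to -0.02, adjusted p = 0.186), with overlap.

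Other visual and eye genes were described from lists that name no member. Of 76 such genes in the table, 10 had no count, 63 were tested, 4 fell, 1 rose and 58 did not pass. The 5 called are 7.94% of those tested, near the 7.64% of all genes, and the median log2 fold change was -0.00 against 0.00 for all genes. By list, the median was -0.08 for the further cascade genes, -0.12 for the lens and pigment genes and -0.49 for Pdh and rdhB. The medians of the other lists are given below. The number called among all these lists became 15 when EtOH replicate 2 was left out, 2 when RU486 replicate 2 was, and 3 for each of the others. Among 13 further cascade genes tested, Ggamma30A, the G protein gamma subunit gene of the eye, fell from 4378 ± 151 to 3810 ± 93.2 CPM (SD, n = 3; edgeR adjusted p = 0.0496), and 12 did not pass. That call held in 1 of the 6 fits that left out a library and 6 of the 11 other settings. Among 15 lens and pigment genes, cd, of brown eye pigment synthesis, fell from 24.3 ± 1.28 to 16.3 ± 0.368 CPM (adjusted p = 0.00605), in all of those fits. In the same list se, of red eye pigment synthesis, fell from 33.1 ± 4.65 to 23.7 ± 2.54 CPM (adjusted p = 0.0495), and its call held in 1 of the 6 fits without a library.

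Among 12 genes of cell junctions and the rhabdomere base, baz, a polarity gene not particular to the eye, rose from 122 ± 10.2 to 172 ± 3.95 CPM (edgeR adjusted p = 0.00510), and 11 did not pass. The list median was 0.09. Of 15 transcription factor genes of eye development edgeR called 0 (median log2 fold change 0.06). Of 6 genes of the histamine synapse, through which photoreceptors signal, it called 0 as well (median -0.22), and Hdc, which makes histamine, was at 96.6 ± 1.91 and 96.1 ± 3.95 CPM. Besides Arr2, the genes ninaA, stops, Xport-A and inaF-B of the cascade and the pigment genes w and st had no counts.

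Markers of further cell types were summed in each library. The 9 glial markers summed to between 3709 and 3788 CPM in EtOH and between 3311 and 3630 CPM in RU486, and 3 of the 7 tested fell. Gs2 held most of that sum, at 2059 CPM in EtOH and 2049 in RU486. Of the markers that fell, wrapper was 4.29-fold lower, Gat 3.79-fold and zyd 1.85-fold. The glial markers did not move together. Among those not called, repo (log2 fold change 0.13) was higher and Eaat1 (-0.26) lower without overlap, and nrv2 (0.07) overlapped. Fat body markers summed to between 6053 and 6867 CPM in EtOH and between 6149 and 6449 CPM in RU486, with 2 of 6 tested lower. Most of that sum was apolpp, at 5476 CPM in EtOH and 5268 in RU486, while Lsp1beta was 11.4-fold and Yp1 3.30-fold lower. Apoltp and to had log2 fold changes of 0.25 and 0.30 and fit had -0.93, and these were not called. Muscle markers summed to between 4673 and 5793 CPM and between 5098 and 5413 CPM, with 0 of 11 called. Hemocyte markers summed to between 414 and 474 CPM and between 413 and 453 CPM, with 1 of 5 tested higher and 1 lower. The glial markers moody and alrm, the neuron marker Syx1A and the hemocyte marker PPO1 had no counts. The part of these cells in the changes of ninaB, laza, pinta and ninaD was not tested.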

How the data were processed

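RNA-seq was made from 6 libraries with a stranded mRNA kit from 500 ng of total RNA each, per the labels' protocols. The authors deposited raw read counts per gene, with 1 column per library and no normalisation, per the file headers. The build was BDGP6, per the submitters' processing notes. Aligner, counting program and strand setting were not given in the sources used here. Of 1818 protein-coding genes inside another coding gene, 1818 had no count, so a 0 there was taken as not measured. Reads of a gene that overlaps another therefore rest on its unshared part.

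Symbols came from a FlyBase table (17626 identifiers matched) and 1-based coordinates from Ensembl release 115. Counts were tested with edgeR 4.0.16 in R 4.3.3 (filterByExpr, minimum count 10; TMM; quasi-likelihood test; Benjamini-Hochberg over 8945 genes; threshold 0.05), which was tested on simulated data. The SE was derived from the fold change and F, and intervals use the degrees of freedom of the fit. No pair of libraries agreed within sampling noise. Alternatives used DESeq2 1.42.0 and limma 3.58.1. The members and lists were chosen with earlier results of these data known. The named genes were all members, the target, and up to 4 called genes of each other list. The genes rdhB, Hdc, t, e and those named as not measured or as markers were chosen after their values were seen. A search for promoter motifs was not run.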

Additional observations from a re-analysis of the deposited data

How the results depend on the processing

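The directions of all 4 called members held in each of the 11 other settings and the 6 fits that left out a library, and no called fold change reversed. The members called lower, 2 in the main analysis, numbered 5 with upper-quartile factors or the DESeq2 Wald test, 4 with the robust prior, 8 with the length correction, 1 at a threshold of 0.01 and 5 at 0.1. Members called higher were 2 except for 1 at the threshold of 0.01 and in the fits noted next. Leaving out each library in turn gave 1 to 8 members lower and 1 to 4 higher, and 2 to 15 other visual genes. Other visual genes called, 5 in the main analysis, were 8 with upper-quartile factors or the DESeq2 Wald test, 3 with no filter, 10 with the length correction, 3 at 0.01 and 11 at 0.1. Over all genes, the fits that left out a library gave 341 to 1441 calls, 214 to 853 higher and 127 to 588 lower. All genes called lower, 293 in the main analysis, numbered 366 with upper-quartile factors, 382 with the DESeq2 Wald test and 369 with the robust prior. The length correction gave 564 lower, a threshold of 0.01 gave 321 (204 higher, 117 lower) and 0.1 gave 1114 (611 higher, 503 lower). The threshold changes these counts by construction; the cause of the other shifts was not tested. The members' median log2 fold change ranged from -0.17 to -0.10. Mean differences in ratios and share kept their sign without any 1 library, and that of Rh5 to Rh6 ranged from 0.0449 to 0.0912.

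The replicate numbers were not used as pairs in the main fit. Deviations from the group means correlated at 0.12, 0.27 and -0.04 between same-numbered libraries. Between differently numbered libraries the correlations ranged from -0.34 to 0.29. With 3 libraries per group, these values cannot decide whether the numbers mark pairs. With the replicate block, 872 of all genes were called (498 higher, 374 lower), and among the members 4 were called lower and 2 higher. Removing the 10 most abundant genes takes 4 members out of the fit, which leaves 28. At these depths ninaD rests on 39 to 113 counts per library.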
